A study of Mus musculus with 4 samples.

Results

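The 10 genes described here act in the uptake and handling of fatty acids by endothelial cells (EC): Cd36, Fabp4, Fabp5, Lpl, Gpihbp1, Rbp7, Meox2, Tcf15, Pparg and Aqp7. They were taken by their symbols from the 16408 nuclear genes counted in single EC sorted from mouse aorta, and all 10 were listed on at least 3 of the 4 plates. Cells were counted as CD31+ CD45- TO-PRO-3- events in the wells of 4 plates, 1 plate for each mouse, after removal of the adventitia and digestion of the whole aorta, by SORT-seq, a plate method that tags the 3′ end of each polyadenylated molecule with a unique molecular identifier (UMI). The mice labelled Epas1 EC-KO (n = 2) carried Epas1fl/fl with Cdh5Cre/+, a tamoxifen-inducible Cre driven by an endothelial promoter, and the mice labelled Epas1 EC-WT (n = 2) were littermates with the same floxed alleles and no Cre (Cdh5+/+). Cre was activated by tamoxifen given on 5 days from 6 weeks of age, and aortas were taken 2 weeks later. The question put to these genes was how high each stood in aortic EC, whether they were found in the same cells, and whether their levels differed between the mice labelled EC-KO and EC-WT.

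Circulating triglyceride is hydrolysed at the surface of the endothelium by lipoprotein lipase, which is held there by the anchor protein GPIHBP1, and the freed fatty acids enter the cell with the help of the scavenger receptor CD36. Inside the cell they are bound by fatty acid-binding proteins such as FABP4 and FABP5, and in capillaries of heart, muscle and fat the transcription factors MEOX2, TCF15 and PPARG promote the expression of this uptake machinery. Aortic EC line a large artery, and this transport is best known from capillary beds.

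In all, 441 of 1536 wells held at least 1000 nuclear UMIs with no more than 25% of UMIs from mitochondrial genes, with 157 and 98 cells in mice 1 and 2 labelled EC-KO and 114 and 72 cells in mice 1 and 2 labelled EC-WT. The kept cells of a mouse held 566088 to 1088901 nuclear UMIs, and the median cell had 3779 to 7419. Pecam1, which encodes CD31, was found in 98.0% of cells. Epas1, the targeted gene, stood at 2930 and 3148 counts per 1000000 nuclear UMIs (CPM) in the mice labelled EC-KO and at 3324 and 2351 CPM in those labelled EC-WT, but 3′ tags need not lie in the deleted part, so these levels check neither the deletion nor the labels. The plates labelled EC-KO gave more kept cells than those labelled EC-WT, whereas the methods of the study give more analysed cells to EC-WT, so the groups are named here as labelled. Whether the labels were exchanged was not tested, and an exchange would turn every direction given between them. Of the kept cells, 21 had at least 1% of their UMIs on 10 smooth muscle genes, 11 and 5 of them in the mice labelled EC-KO and 3 and 2 in those labelled EC-WT.

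Fabp4, Cd36 and Fabp5 were the 3 most abundant of the genes. Fabp4 stood at 363 and 267 CPM in the mice labelled EC-KO and at 399 and 449 CPM in those labelled EC-WT, and Cd36 at 79.0 and 63.4 CPM against 60.1 and 136 CPM. Since each molecule gives a single 3′ tag, these levels need no correction for transcript length. Over the 4 mice the mean ± SD was 369 ± 76.9 CPM for Fabp4, 84.6 ± 35.2 CPM for Cd36, 45.4 ± 6.94 CPM for Fabp5 and 18.9 ± 11 CPM for Meox2, and each of these was above the next in every mouse (exact 2-sided sign-flip permutation p = 0.13, the smallest that 4 mice allow). The other 6 genes averaged 2.36 to 7.65 CPM in the order Tcf15, Lpl, Gpihbp1, Aqp7, Pparg and Rbp7, and no neighbours among them differed beyond the spread between mice.

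**Figure D1:**
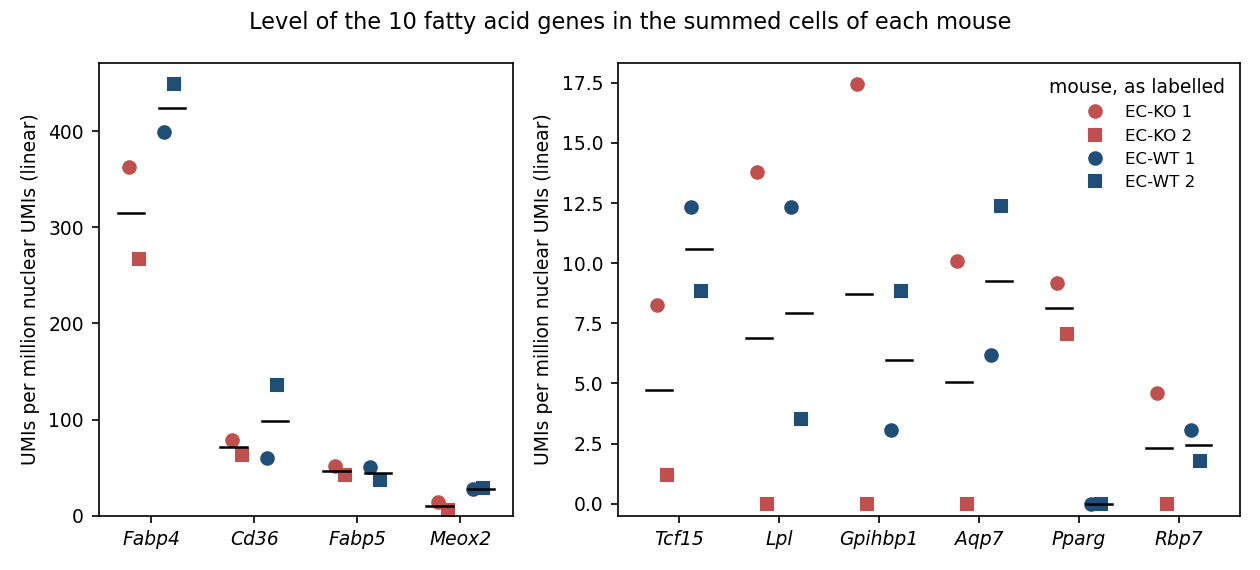
Level of each gene in the summed kept cells of each mouse, in CPM on linear axes, with the 4 higher genes on the left and the other 6 on the right; symbols are mice as labelled and bars are means of 2 mice. Fabp4 stood at 267 to 449 CPM, above all other genes in every mouse, while 4 of the 6 genes on the right were at 0 in mouse 2 labelled EC-KO.

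Cd36 (chr5:17781690-17888801 in GRCm38, minus strand) encodes the membrane glycoprotein that binds long-chain fatty acids and oxidised lipoproteins. It had 256 UMIs in 35 of 441 cells. The share of cells with a Cd36 UMI was 7.64% (12 of 157 cells, 95% exact Clopper-Pearson interval 4.01 to 13.0%) and 3.06% (3 of 98, 0.636 to 8.69%) in the mice labelled EC-KO, and 7.02% (8 of 114, 3.08 to 13.4%) and 16.7% (12 of 72, 8.92 to 27.3%) in those labelled EC-WT. The intervals, here and below, cover counting error only. The lowest share was in mouse 2 labelled EC-KO and the highest in mouse 2 labelled EC-WT, and the shares overlapped between labels. Cd36 was carried unevenly between cells: 16 of the 35 had 1 UMI, whereas 5 cells together held over 50% of all Cd36 UMIs and the highest had 47, in mouse 2 labelled EC-KO. In 11 of the 35 cells every Cd36 UMI rested on a single read.

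The 250 bases upstream of the RefSeq start were at hand for 5 of the 10 genes (8 starts, GRCm38.p6), and those of Cd36, Meox2 and Rbp7 are shown as those of the uptake receptor, a regulator and the gene whose UMIs all lay in cells with Cd36. Capitals mark each match to AGGTCA (the element that nuclear receptors such as PPARG recognise, TGACCT on the opposite strand), to CANNTG (the E-box of helix-loop-helix factors such as TCF15, which can overlap the next motif) or to ACGTG (the core that hypoxia-inducible factors such as EPAS1 recognise, CACGT on the opposite strand).
Cd36: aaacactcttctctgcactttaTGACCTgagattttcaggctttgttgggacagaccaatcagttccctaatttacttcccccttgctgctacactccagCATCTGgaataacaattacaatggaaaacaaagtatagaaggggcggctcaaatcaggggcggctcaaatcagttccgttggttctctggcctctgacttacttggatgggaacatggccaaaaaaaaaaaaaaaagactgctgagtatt
Meox2: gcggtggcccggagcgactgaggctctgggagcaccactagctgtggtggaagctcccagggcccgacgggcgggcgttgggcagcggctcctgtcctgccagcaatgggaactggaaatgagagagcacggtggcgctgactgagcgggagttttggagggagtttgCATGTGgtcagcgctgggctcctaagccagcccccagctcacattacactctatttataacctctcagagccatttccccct
Rbp7: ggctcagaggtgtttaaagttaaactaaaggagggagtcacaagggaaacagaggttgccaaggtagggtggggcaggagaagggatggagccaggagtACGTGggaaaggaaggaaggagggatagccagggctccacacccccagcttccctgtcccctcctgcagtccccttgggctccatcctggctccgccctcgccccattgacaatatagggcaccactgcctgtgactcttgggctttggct
The Cd36 stretch (chr5:17835897-17836146, minus strand, before a start that lies inside the longer annotated gene) holds TGACCT at 228 to 223 and CATCTG at 150 to 145 bases before the start. The Meox2 stretch (chr12:37108290-37108539, plus strand) holds CATGTG alone, at 82 to 77 bases, and the Rbp7 stretch (chr4:149454969-149455218, minus strand) holds ACGTG alone, at 151 to 147 bases. Of the 8 stretches of the 5 genes, AGGTCA was found in 5 (of Cd36, Pparg and Aqp7), CANNTG in 6 and ACGTG in 1. Among all 32851 RefSeq stretches of this length the shares were 14%, 66.2% and 16.6%. The 2 stretches of Aqp7 overlap, so the same AGGTCA match and the same CACCTG match are counted in both. A match is a string of letters and not a measured binding site.

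The intracellular carriers were the most often detected genes. Fabp4 (chr3:10204088-10208576, minus strand) and Fabp5 (chr3:10012548-10016607, plus strand) are neighbours on chromosome 3 and encode small proteins that bind fatty acids in the cytosol. Fabp4 had 1135 UMIs in 113 cells, with shares of 24.2% (38 cells), 25.5% (25), 24.6% (28) and 30.6% (22) in mice 1 and 2 labelled EC-KO and 1 and 2 labelled EC-WT. Fabp5 had 146 UMIs in 72 cells, with shares of 17.8% (28), 14.3% (14), 14.9% (17) and 18.1% (13). Both shares were close across the 4 mice, and their ranges overlapped between labels.

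Cells with a single Fabp4 UMI seldom held Cd36 or Meox2. Fabp4 was found in 7 of the 21 smooth muscle-like cells (33.3%, 31 UMIs, median depth 5263 UMIs) and in 25.2% of the other 420 cells (median depth 5618). Of those 31 UMIs, 20 came from 1 cell with 47621 UMIs, and Pecam1 was found in 15 of the 21 cells (71.4%), so these cells are no clean measure of background, and how much of the Fabp4 share is background was not tested. Fabp5 was found in 0 of those 21 cells and Cd36 in 1 of them (4.76%), against 17.1% and 8.10% of the others. The 48 cells with 1 Fabp4 UMI held a Cd36 UMI in 1 case and a Meox2 UMI in 0, and the 328 cells with no Fabp4 UMI held Cd36 in 10 cases (3.05%) and Meox2 in 1.

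Other members were often found in the 42 cells with 5 or more Fabp4 UMIs. Cd36 was present in 23 of them (54.8%), Fabp5 in 25 (59.5%), Meox2 in 17 (40.5%), Tcf15 in 11 and Gpihbp1 in 7, at a median depth of 6642 UMIs against 7597.5 in the cells with 1 Fabp4 UMI. All 11 cells with Tcf15 and 7 of the 8 cells with Gpihbp1 were among these 42. The other 19 of the 42 had no Cd36 UMI, with 5 to 74 Fabp4 UMIs each, and 8 of the 19 had no UMI of any other member. They lay in mice 1 and 2 labelled EC-KO (7 and 8 cells) and mice 1 and 2 labelled EC-WT (3 and 1), and 1 of them was smooth muscle-like.

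Lpl and Gpihbp1, the lipase and the protein that anchors it to the capillary wall, were rare. Lpl (chr8:68880491-68907448, plus strand) had 15, 0, 8 and 2 UMIs in mice 1 and 2 labelled EC-KO and 1 and 2 labelled EC-WT, in 12 cells. Gpihbp1 (chr15:75596628-75599481, plus strand) had 19, 0, 2 and 5 UMIs in 8 cells, of which 11 UMIs came from 1 cell of mouse 1 labelled EC-KO. Mouse 2 labelled EC-KO had neither, which allows at this depth up to 3.52 CPM (a floor of 3 counts). Levels in the other 3 mice were 3.53 to 13.8 CPM for Lpl and 3.08 to 17.4 CPM for Gpihbp1, and the labels overlapped for both genes.

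Rbp7 and Aqp7 stood as low. Rbp7 (chr4:149449687-149454978, minus strand), which encodes a retinol-binding protein of the same family as the FABPs, had 5, 0, 2 and 1 UMIs in 5 cells. Aqp7 (chr4:41033074-41048139, minus strand), a water channel that also carries glycerol, had 11, 0, 4 and 7 UMIs in 13 cells, 9 of which held a single UMI. Again mouse 2 labelled EC-KO had 0 of both, while mouse 1 labelled EC-KO, at 4.59 CPM of Rbp7, lay above both mice labelled EC-WT (3.08 and 1.77 CPM) and, at 10.1 CPM of Aqp7, between them (6.16 and 12.4 CPM).

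Meox2 (chr12:37108540-37179534, plus strand), a homeobox factor of heart and muscle capillaries, stood at 13.8 and 5.87 CPM in the mice labelled EC-KO (15 and 5 UMIs) and at 27.7 and 28.3 CPM in those labelled EC-WT (18 and 16 UMIs). Its dimer partner Tcf15 (chr2:152143561-152149097, plus strand), a helix-loop-helix factor, stood at 8.27 and 1.17 CPM against 12.3 and 8.83 CPM. For both genes the mice labelled EC-KO lay below those labelled EC-WT without overlap, although Tcf15 rested on 1 to 9 UMIs per mouse.

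Pparg (chr6:115360951-115490399, plus strand), the nuclear receptor that activates Cd36 and Fabp4 in adipocytes, had 10 and 6 UMIs in the mice labelled EC-KO, in 6 cells and 1 cell, and 0 in both labelled EC-WT, where the floor of 3 counts is 4.62 and 5.30 CPM. With no limit on mitochondrial UMIs, 1 cell with 1 Pparg UMI was found in each mouse labelled EC-WT, and the difference in the share of cells was 1.27 percentage points in place of 2.42. An antisense gene of unknown role overlaps Pparg and a short gene within an intron overlaps Meox2, and neither was separated from its host here beyond the authors' own counting.

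Between the labels, no member passed the test. Summed per mouse and fitted with edgeR's quasi-likelihood test over all 8385 genes that passed the filter on low counts, 10 genes were called at an adjusted p under 0.05, which is 0.119% of those tested, and all 10 were higher in EC-KO. Cd36, Fabp4, Fabp5 and Meox2 passed the filter and 0 of the 4 were called (1 of the 4 at an unadjusted p under 0.05, against 6.6% of all genes; 0 also with DESeq2). The log2 fold change of EC-KO over EC-WT was -0.40 ± 0.34 (SE) for Cd36 (adjusted p = 0.883), -0.38 ± 0.20 for Fabp4 (0.771), 0.13 ± 0.32 for Fabp5 (0.974) and -1.41 ± 0.51 for Meox2 (0.635, unadjusted p = 0.0183). Leaving out 1 mouse moved Fabp4 from -0.15 (without mouse 2 labelled EC-KO) to -0.65 (without mouse 1 labelled EC-KO) and Meox2 from -0.95 to -2.20 in the same way. The sign for Cd36 rested on mouse 2 labelled EC-WT, without which the value was 0.27, and with all cells thinned to 1000 UMIs it was -1.51 (adjusted p = 0.108). With a minimum of 2000 UMIs per cell Cd36 was at -0.01, and without the 1 cell richest in each gene Cd36 was at -1.03, Fabp4 at -0.59 and Meox2 at -2.11 (adjusted p 0.261 to 0.826). The sign for Fabp5 turned without mouse 1 labelled EC-KO (-0.05), without mouse 2 labelled EC-WT (-0.09), and without the 1 cell richest in it (-0.09). Fitted with no filter, Pparg had an adjusted p of 0.224 and the other 5 rare members 0.909 to 0.996.

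The CPM of the labels did not overlap for 4 of the 10 members: Fabp4, Meox2 and Tcf15 were lower in EC-KO and Pparg higher. Of all genes tested, 36.4% did not overlap between the labels, with 20.7% lower in EC-KO and 15.7% higher. Tcf15 and Pparg were not among the genes tested. For the shares of cells with a UMI, the difference of EC-KO minus EC-WT was -6.49 percentage points for Cd36 and -3.61 for Meox2 with exact 2-sided permutation p = 0.667 and 0.33, and 0.33 is the smallest p that 2 mice against 2 allow. The Cd36 difference was -1.67 points without mouse 2 labelled EC-WT, -11.3 without mouse 1 labelled EC-WT and -4.20 without mouse 2 labelled EC-KO. Of the 10 called genes, 6 were on the smooth muscle list (Acta2, Tagln, Myh11, Myl9, Cnn1 and Mylk), and 0 genes were called without the 21 smooth muscle-like cells, where Cd36 was at -0.30, Fabp4 at -0.33 and Meox2 at -1.31. Mouse 2 labelled EC-KO and mouse 1 labelled EC-WT were read on the same flow cell, and between these mice Cd36 differed by 0.08 and Fabp4 by -0.58 on the log2 scale with no test.

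Most of the member UMIs lay in few cells, but Fabp4 and Fabp5 were often found in cells with no other member. Of 441 cells, 274 had no UMI of any member, 112 had 1 member, 22 had 2 and 33 had 3 or more, up to 9 of the 10 in 1 cell of mouse 1 labelled EC-KO. Of the 112 cells with 1 member, 65 had Fabp4 and 35 had Fabp5. The 33 cells made up 7.48% of all cells and held 74.9% of all 1711 member UMIs. They held 96.9% of Cd36, 96.2% of Gpihbp1, 95.7% of Tcf15, 94.4% of Meox2 and 100% of Rbp7 UMIs. The shares were lower for Pparg (81.25%), Lpl (80%), Fabp4 (71.9%), Aqp7 (68.2%) and Fabp5 (43.8%). A cell counted here for its members must hold some of them, so these shares describe how far the UMIs were concentrated and are no test. The median depth of the 33 was 6250 UMIs against 5458.5 in the other cells, all 33 had UMIs of Cdh5, an endothelial cadherin, against 83.6% of the others, and 1 was smooth muscle-like.

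**Figure D2:**
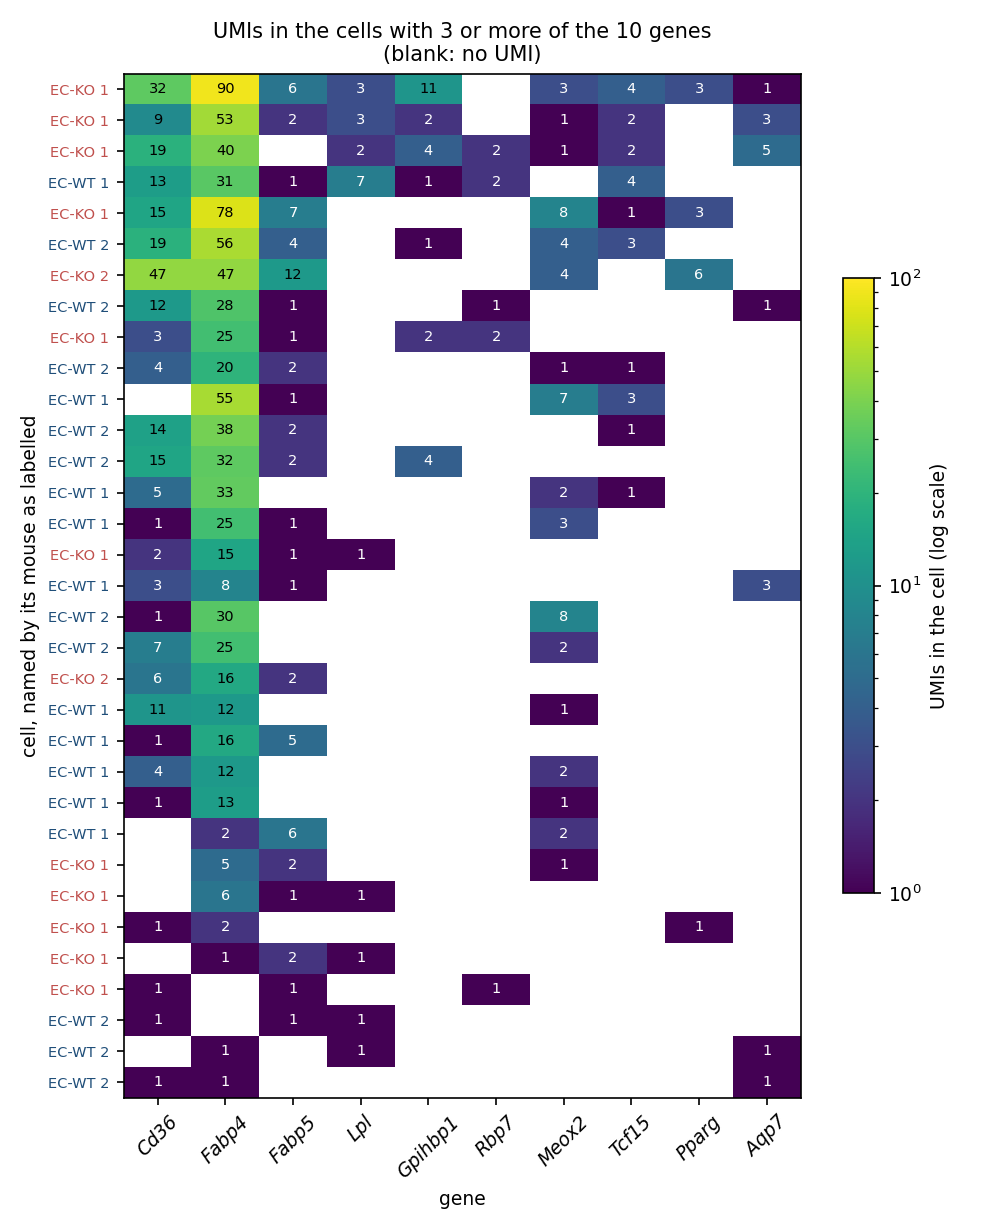
UMIs of each of the 10 genes (columns) in each of the 33 cells with 3 or more of them (rows, named by mouse as labelled), coloured on a log scale, with blanks for no UMI. Cd36 and Fabp4 were both present in most rows, and the 9-member cell at the top held 32 Cd36 and 90 Fabp4 UMIs.

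The cell with 9 members had 32 UMIs of Cd36, 90 of Fabp4, 11 of Gpihbp1, 6 of Fabp5, 4 of Tcf15, 3 each of Lpl, Meox2 and Pparg and 1 of Aqp7, among 6900 UMIs, so that the members took 2.22% of its UMIs. A cell of mouse 1 labelled EC-WT with 1563 UMIs, near the lower limit of depth, had 7 members, with 31 UMIs of Fabp4, 13 of Cd36, 7 of Lpl and 4 of Tcf15 (3.77% of its UMIs). The cell richest in Cd36, of mouse 2 labelled EC-KO, had 47 UMIs each of Cd36 and Fabp4 with 12 of Fabp5, 6 of Pparg and 4 of Meox2, and none of Lpl or Gpihbp1. At the other end, 6 of the 33 cells had no more than 4 member UMIs in all.

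The share of cells with 3 or more members was 7.01% (11 cells) and 2.04% (2) in the mice labelled EC-KO and 8.77% (10) and 13.9% (10) in those labelled EC-WT. The means were 4.52 ± 3.51% (SD, n = 2) and 11.3 ± 3.62%, a difference of -6.81 percentage points (exact 2-sided permutation p = 0.33). When every cell was thinned to 1000 UMIs, 11 cells remained with 3 or more members, and the difference was -0.35 points (exact permutation p = 0.667). With 2 mice against 2 neither p could fall below 0.33. Counted over members other than Fabp4 and Fabp5 the difference was -0.86 points, and for 2 or more members it was -3.20 points (exact permutation p = 0.667 for both).

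Cells with a Cd36 UMI (carriers) were then set against the other cells of the same mouse. The 35 carriers had a median of 5539 UMIs and 9.12% mitochondrial UMIs, and the 406 other cells 5581.5 and 7.62%. Fabp4 was found in 58.3, 66.7, 100 and 66.7% of carriers and in 21.4, 24.2, 18.9 and 23.3% of other cells, in mice 1 and 2 labelled EC-KO and 1 and 2 labelled EC-WT. Every mouse had the larger share in its carriers, and the carriers' lowest share was above the highest of the others. In UMIs, the carriers' Fabp4 stood at 3162, 3059, 2743 and 1911 CPM and that of the other cells at 92.6, 197, 183 and 53.8 CPM.

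**Figure D3:**
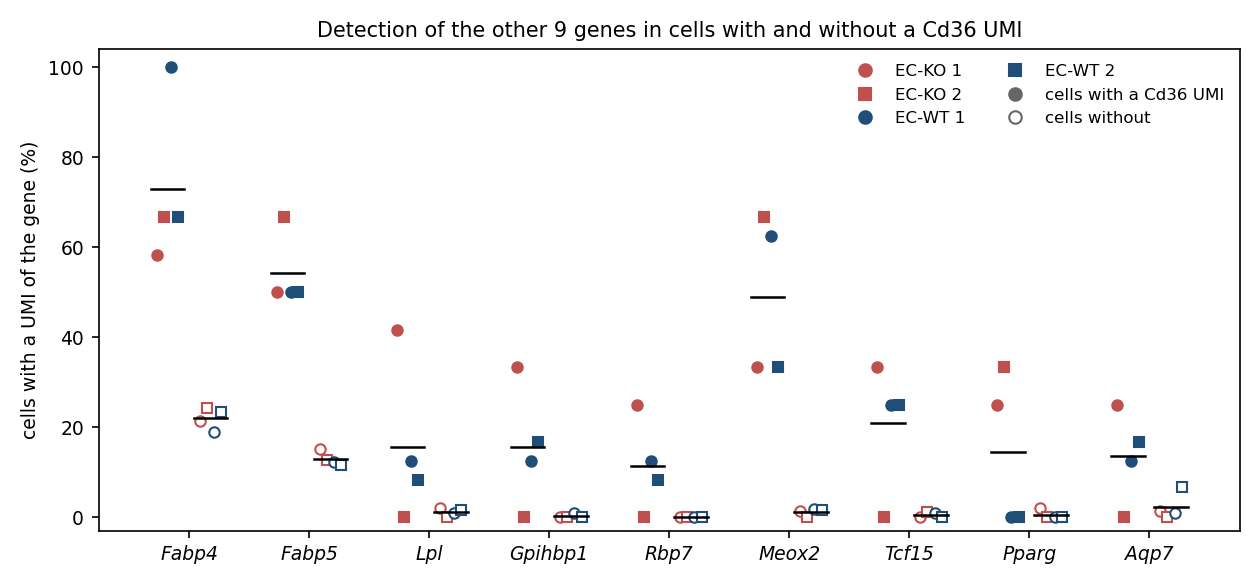
Share of cells with a UMI of each of the other 9 genes, in percent, among cells with a Cd36 UMI (filled) and without (open), by mouse as labelled; bars are means of the 4 mice. For Fabp4, Fabp5 and Meox2 all 4 filled symbols lie above all open ones, while for the rarer genes mouse 2 labelled EC-KO, with 3 carriers, is mostly at 0.

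Meox2 was found in 15 of the 35 carriers and in 5 of the 406 other cells. Its share was 33.3, 66.7, 62.5 and 33.3% of carriers, in the same order of mice, against 1.38, 0, 1.89 and 1.67% of other cells. Fabp5 was found in 50.0, 66.7, 50.0 and 50.0% of carriers against 15.2, 12.6, 12.3 and 11.7%. For both genes the shares of carriers lay above those of other cells, with no overlap over the 4 mice. Averaged over mice, the difference was 51.0 percentage points for Fabp4, 47.7 for Meox2 and 41.2 for Fabp5 (exact sign-flip permutation p = 0.13 each, the smallest possible, and 0.281 adjusted over the 9 genes).

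The rarer members were also found mostly in carriers. All 8 Rbp7 UMIs, 25 of 26 Gpihbp1, 19 of 23 Tcf15, 13 of 16 Pparg, 18 of 25 Lpl and 14 of 22 Aqp7 UMIs lay in carriers, which held 291456 of the 3155084 nuclear UMIs. Their shares of carriers minus other cells were 11.3 to 20.3 percentage points on average, in 3 of the 4 mice for Lpl, Gpihbp1, Rbp7, Tcf15 and Aqp7 and in 2 for Pparg. The carriers of mouse 2 labelled EC-KO, 3 cells, had none of Lpl, Gpihbp1, Rbp7, Tcf15 or Aqp7. Thinned to 1000 UMIs, 20 cells kept a Cd36 UMI, and Fabp4 was found in 18 of them (90%) against 8.31% of the others, Fabp5 in 4 (20%) against 4.75% and Meox2 in 3 (15%) against 0.713%. The mean difference for Meox2 was then 11.7 percentage points (exact sign-flip permutation p = 0.5) in place of 47.7, and that for Fabp5 20.3 in place of 41.2 (p = 0.25).

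Fitted by edgeR with mouse as a block, 51 of 5001 genes other than Cd36 were called higher in carriers (1.02%) and 31 lower (0.62%), 1.64% in either direction. Fabp4 rose by a log2 fold change of 4.41 ± 0.27 (SE, adjusted p = 7.0e-17), while the median of all genes was -0.07. Fabp5 stood at 188, 680, 146 and 99.7 CPM in carriers and at 38.3, 26.5, 42.1 and 20.2 CPM in other cells, and Meox2 at 136, 243, 165 and 125 against 2.01, 0, 15.1 and 2.24 CPM. Both passed the filter through the carriers, so their tests there and the number of members called are not used. Fitted with no filter, 126 of 16225 genes were called in all, 53 higher and 73 lower. Among them were Fabp5 (2.43 ± 0.46, adjusted p = 5.2e-05), Meox2 (4.94 ± 0.65, 5.9e-11), Gpihbp1 (6.39 ± 1.13, 1.0e-05), Tcf15 (4.94 ± 0.97, 0.000166), Pparg (5.52 ± 1.26, 0.0033) and Lpl (4.18 ± 0.96, 0.0033), whereas Rbp7 (0.0529) and Aqp7 (0.0924) were not called. Gpihbp1, Pparg, Tcf15 and Lpl had 1, 3, 4 and 7 UMIs in the other cells. Carriers of mouse 2 labelled EC-KO had 0 UMIs of Gpihbp1, Tcf15 and Lpl, and both mice labelled EC-WT had 0 of Pparg. Of the 26 Gpihbp1 UMIs, 11 lay in 1 cell. Without the 1 cell per mouse with most Cd36 UMIs, a choice made after seeing the data, Fabp4 (3.98) was still called. In that fit Fabp5 (1.84) lost its call and Meox2 (4.64) kept it, but as above these tests of Fabp5 and Meox2 are not used.

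Another anchor gene was also used. Taking the 8 cells with a Gpihbp1 UMI in its place, from 3 of the 4 mice, Fabp4 was higher by 4.25 (adjusted p = 3.4e-05). Of these 8 cells, 7 were also carriers of Cd36, so this is mostly the same cells again. Fabp5 was higher by 2.84 and not called, and as above this test of Fabp5 is not used. Over all 45 pairs of members, 44 shared at least 1 cell, the exception being Pparg with Rbp7. In 88 of the 90 ordered pairs the second gene was more often found in cells with the first than in cells without. The direction is the same in both orders of a pair, so this counts each of the 45 pairs again in reverse. The count was not matched for depth and was not made for pairs of other genes, so it is not shown to be particular to these members. Median depth was 4902.5, 6221.5, 9227.5, 7368.5 and 5631 UMIs in cells with 0, 1, 2, 3 and 4 members.

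**Figure D4:**
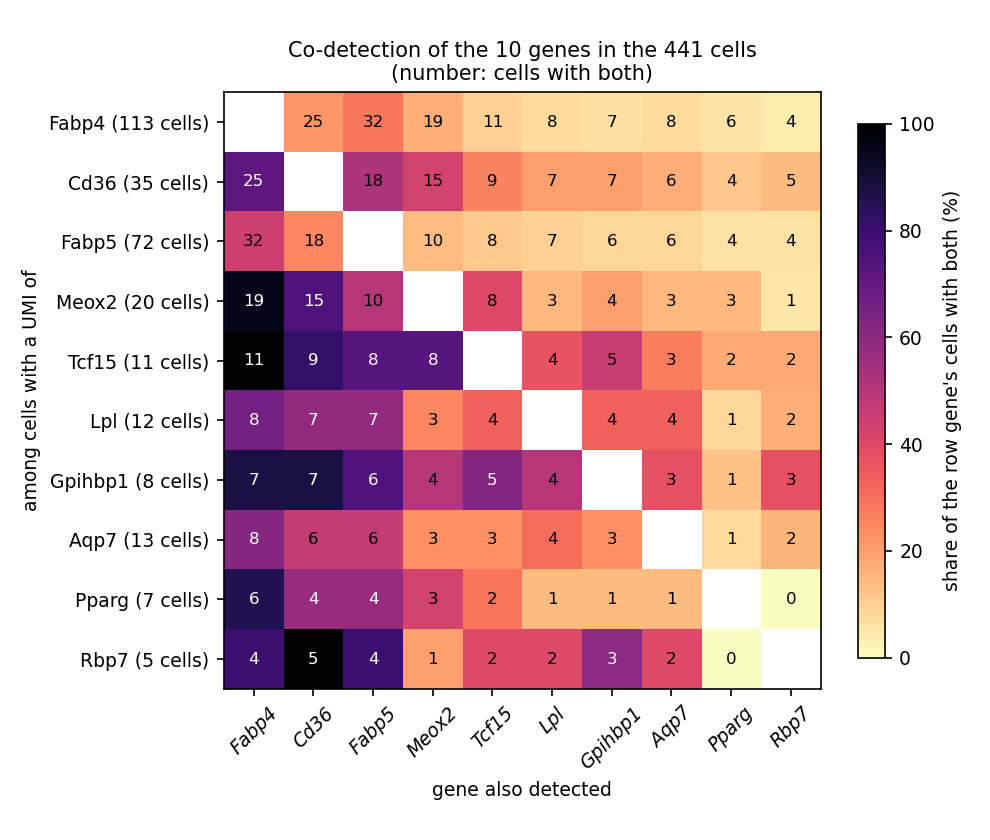
Co-detection of each pair of members in the 441 cells: colour gives the share of the row gene's cells (number in brackets) that also had a UMI of the column gene, in percent, and the number in each field counts the cells with both. Fabp4 was found with all 11 cells of Tcf15 and 19 of the 20 cells of Meox2, and Cd36 with all 5 cells of Rbp7.

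Among the pairs known to act together, Meox2 and Tcf15 shared 8 cells, which is 40.0% of the cells with Meox2 and 72.7% of those with Tcf15. Thinned to 1000 UMIs, 6 cells kept Meox2 and 3 kept Tcf15, with 0 shared. Of the 20 cells with Meox2, 19 had Fabp4. Gpihbp1 and Lpl shared 4 cells, 50.0% of those with Gpihbp1, and 1.85% of cells without Gpihbp1 had Lpl. Pparg shared 4 of its 7 cells with Cd36 and 6 with Fabp4. For Aqp7, 6 of its 13 cells had Cd36, and 4 of the 7 that did not were in mouse 2 labelled EC-WT.

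Across the cells of each mouse, the genes outside the set whose normalised levels ran most like Cd36 were C1qtnf9 (mean Pearson r over 4 mice 0.67), Pde2a (0.64), Kdr (0.63), Cd300lg (0.58) and Apold1 (0.58), among 10546 genes found in at least 10 cells, for the 4 members found in at least 20 cells. Those most like Fabp4 were Pde2a (0.68), Nrp2 (0.63), Lrg1 (0.59), Fam174b (0.53) and Kdr (0.51), and those most like Meox2 were Pde2a (0.65), Lrg1 (0.62), Lhx6 (0.57), C1qtnf9 (0.54) and Robo4 (0.53). For Fabp5 all were weaker, with Pde2a (0.44), Emcn (0.37), Lhx6 (0.36), C1qtnf9 (0.35) and Nrp2 (0.35). Among members, r was 0.69 for Cd36 with Fabp4 and 0.64 for Cd36 with Meox2. These values are over 72 to 157 cells of a mouse that share a library and are mostly at 0, and they serve as a description only.

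Several of these genes are known from vessels other than the aorta, and lists of vessel markers were counted in the carriers. On the capillary list the water channel Aqp1 (2.24 ± 0.23, adjusted p = 9.2e-10) and Plvap, a protein of endothelial diaphragms (0.95 ± 0.23, 0.0159), rose in carriers, and Gngt2 (1.27 ± 0.42, 0.148) was not called. On the venous list Emcn rose (1.85 ± 0.28, adjusted p = 2.0e-05), and Ephb4 (1.02, 0.217), Selp (-0.11, 0.986) and Vcam1 (-0.31, 0.869) were not called. The other tested genes of these lists passed the filter through 1 of the 2 kinds of sums only, so they are given by level and no count of called genes is given. Car4, Rgcc, Btnl9 and Timp4 on the capillary list were not tested, with 4, 20, 1 and 47 UMIs in all kept cells. Of these UMIs, 4, 18, 1 and 13 lay in carriers. Ackr1 on the venous list was not listed in any plate. Kdr, the main VEGF receptor, stood at 49.8 to 388 CPM in carriers and 4.03 to 6.73 CPM in other cells. Cd300lg stood at 66.5 to 334 against 1.01 to 6.73 CPM and Sparcl1 at 183 to 584 against 6.73 to 166 CPM. Of the venous genes, Lrg1 stood at 198 to 1408 against 17.9 to 74.0 CPM, Nr2f2 at 52.2 to 439 against 17.9 to 40.4 CPM and Nrp2 at 52.2 to 256 against 2.01 to 21.9 CPM. The arterial gap junction gene Gja4 stood at 0 to 347 CPM in carriers and 258 to 358 CPM in other cells, lower in 3 of 4 mice. Pooled over mice, the arterial genes Hey1 (37.7 against 5.59 CPM), Dll4 (68.6 against 19.6), Sox17 (172 against 154) and Sema3g (6.86 against 3.84) were higher in carriers. By mouse, Sox17 was higher only in mouse 1 labelled EC-KO (250 against 113), with a fitted log2 fold change of -0.08. In the others it stood at 97.1 against 147, 91.4 against 172 and 158 against 233. Dll4 was lower in carriers of mouse 2 labelled EC-KO (0 against 22.9) and mouse 1 labelled EC-WT (18.3 against 23.6). Sema3g had 2 UMIs in carriers and was at 0 in those of the same 2 mice. Efnb2, Gja5, Bmx, Fbln5 and Vegfc were lower in carriers when pooled, and these and Sox17 were tested and not called.

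The lists were also summed in each mouse. The capillary list stood at 4298 to 10100 CPM in carriers and 1476 to 2230 CPM in other cells. Most of this sum came from 2 genes: of 1455 capillary-list UMIs in carriers, 634 were of Aqp1 and 545 of Plvap. Plvap was found in 74.3% of carriers and 79.8% of other cells. The venous list stood at 1722 to 4273 CPM in carriers and 1249 to 1565 CPM in other cells. The arterial list stood at 874 to 1865 CPM in carriers and 2277 to 2770 CPM in other cells. None of these 3 pairs of ranges overlapped, whereas those of the endothelial list did (8047 to 11605 against 8267 to 10870 CPM). No carrier or other cell is given a type from these sums.

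**Figure D5:**
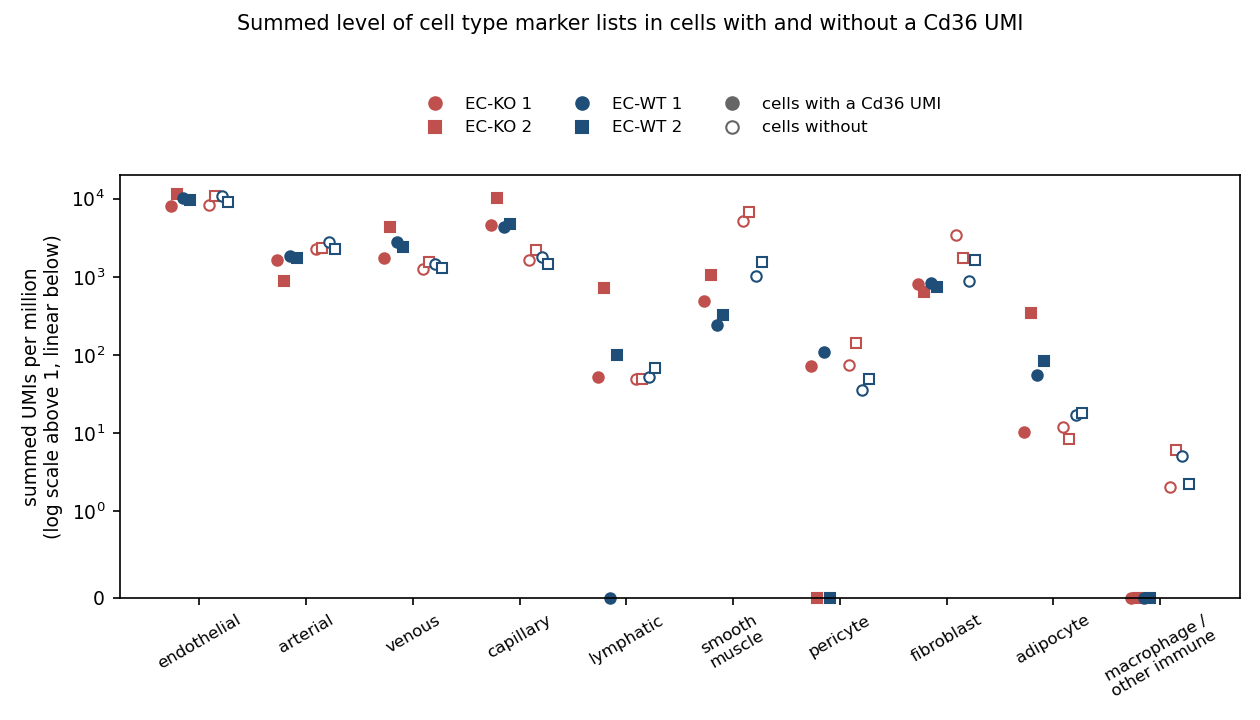
Summed level of marker lists in CPM, on a log scale above 1 and linear below, in the summed cells with a Cd36 UMI (filled) and without (open) of each mouse as labelled. The capillary list stood at 4298 to 10100 CPM in carriers, mostly from Aqp1 and Plvap, and 1476 to 2230 CPM in other cells. The immune list was at 0 in all 4 sums of carriers.

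Genes of other cells that use this pathway were few. On the adipocyte list 6 of 10 genes were found in kept cells, at 10.4 to 340 CPM summed in carriers and 8.43 to 17.9 CPM in other cells, and Adipoq, Plin1 and Cidec, which define the fat cell, were not listed in any plate. Lipe made up 18 of the 21 adipocyte-list UMIs in carriers, and it is also on the droplet list below. On the immune list 4 of 10 genes were found, with 0 UMIs in carriers (a floor of 10.3 CPM) and 11 in other cells. Of the 7 lymphatic genes Prox1, Pdpn and Ccl21a were not listed. Lyve1 had 25 UMIs in 4 carriers, at 728 CPM in those of mouse 2 labelled EC-KO, and 48 UMIs in 28 other cells. Flt4 stood at 24.0 CPM in carriers and 33.9 CPM in other cells, and Mmrn1 and Reln had 0 UMIs in carriers. The smooth muscle list was lower in carriers, at 238 to 1068 CPM against 1037 to 6749 CPM, and the fibroblast list was at 631 to 841 against 888 to 3461 CPM. The part of these differences in the members' values was not tested. Fabp4 was at 4.42 without the smooth muscle-like cells, and no fit left out cells by their fibroblast genes.

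The rest of the pathway was given by 4 lists. Of 14 genes of lipases and fatty acid entry, 3 were tested in carriers and 0 were called: Lrp1, a lipoprotein receptor (-1.85, adjusted p = 0.17), Dbi, which binds acyl-CoA (-0.34, 0.963), and Got2 (0.05, 0.992). Lipg, the endothelial lipase, had 2 UMIs in all cells and Angptl4, an inhibitor of lipoprotein lipase, 4, so neither could be compared between labels. Scarb1, the receptor for high-density lipoprotein, had 38 of its 76 UMIs in carriers and Aplnr, the apelin receptor on the list of regulators, 17 of 18. Lipg, Angptl4, Scarb1 and Aplnr were picked out after their values were seen.

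Of all genes tested, 1.02% were called higher in carriers, beside which the next 3 counts stand. Of 14 genes of acyl-CoA synthesis and lipid droplets, 5 were tested in carriers and 1 rose, Mgll, which splits monoglycerides into fatty acid and glycerol (1.30 ± 0.30, adjusted p = 0.00751). Of 19 regulators, 8 were tested and 1 rose, Flt1, the receptor for VEGF-B (2.33 ± 0.44, 0.000761, higher in 3 of 4 mice). Of 10 other aquaporins and lipid-binding proteins 2 were tested and 1 rose, Aqp1, whose values are given above. Between the labels, 7, 9, 13 and 2 genes of the 4 lists were tested and 0 were called in any, with median log2 fold changes of -0.35 to 0.22 beside -0.01 over all genes.

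Wells that share a barcode or held little RNA were counted too. In the same-numbered wells of the other plates, which carry the same well barcode, 2 of 105 held a Cd36 UMI, and 0 of the 11 on the shared flow cell did. In the wells with under 500 UMIs Cd36 stood at 83.2 CPM and Fabp4 at 333 CPM, close to 81.1 and 360 CPM over the kept cells.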

How the data were processed

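Single aortic cells of 4 mice were sorted into 384-well plates and sequenced by SORT-seq. The deposited tables hold UMI counts per gene and well, and the authors also deposited read counts and estimated counts of transcripts, which correct UMI counts for collisions among 4096 possible UMIs; reads were mapped with BWA 0.7.15 to GRCm38 (mm10) per the submitters' processing notes. UMI counts were used here, without rows for spike-in and mitochondrial genes. Wells with at least 1000 nuclear UMIs and at most 25% mitochondrial UMIs were kept as cells, 72 to 157 per mouse with 566088 to 1088901 UMIs. No doublet caller was run, and cells over 3 times the median UMIs were left out as an alternative.

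Members and lists were chosen with earlier results of these data known. Counts were summed per mouse and fitted with edgeR 4.0.16 (TMM, quasi-likelihood, filterByExpr, Benjamini-Hochberg adjustment over all genes tested, threshold 0.05) in R 4.3.3, EC-KO over EC-WT, and, with mouse as a block, cells with a Cd36 UMI over cells without. DESeq2 1.42.0, other filters, thinning to 1000 UMIs and leaving out each mouse were alternatives. Fits were tested on simulated data. Single values were compared by exact 2-sided permutation tests in Python 3.11.15 with scipy 1.17.1. All 10 members and Epas1 were named by rule, with the 5 genes most alike to each member found in at least 20 cells and, from each pathway list, the genes called or else the 3 with most UMIs. Marker genes were named from their lists, and other genes are said to be picked after their values were seen. P-values between the labels measure the spread between 2 mice per label. Those for carriers against other cells and for the order of genes measure the spread of differences within the 4 mice. Numbers 1 and 2 of the labels were not shown to pair mice. Not all genes of the lists are reported here.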

Additional observations from a re-analysis of the deposited data

Results flagged for a closer look

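The wells with under 500 UMIs, which no comparison used, held 7 Cd36 UMIs, 28 Fabp4 UMIs and 5 Fabp5 UMIs, above the limit of 3 counts that a count of 0 allows. This corresponds to 83.2, 333 and 59.4 CPM, beside 81.1, 360 and 46.3 CPM over the kept cells.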

How the results depend on the processing

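Each label had 2 mice, and 4 of the 10 members had enough UMIs to pass the filter between the labels. Between the labels 0 members were called under every alternative run, including the fit with the replicate block, which called 8 genes in all against 10; the correlation of same-numbered mice was -0.05. Genes called between labels numbered 22 with a minimum of 2000 UMIs, 17 with no mitochondrial limit, 115 among genes with any UMI, 12 with DESeq2, 0 without smooth muscle-like cells, 0 without cells over 3 times the median UMIs, and 4 to 129 when 1 mouse was left out. In Cd36 carriers the number of members called, which counts members that passed the filter through the carriers and is no support, was 3 of 3 tested, 1 of 1 when thinned (Fabp4 at 5.00), 7 of 9 among genes with any UMI, 1 of 1 with at least 10 UMIs in every sum (Fabp4 at 4.38), and 3 to 4 without 1 mouse. All genes called there, 83 with Cd36, became 204 without cells over 3 times the median UMIs, 126 with any UMI, 20 with at least 10 UMIs in every sum, 268 with at least 2 Cd36 UMIs, 47 with at least 2 Fabp4 UMIs, 34 without the cells richest in Cd36, and 36 to 76 without 1 mouse (36 without EC-KO mouse 2). The difference in the share with 3 or more members was -9.37 to -4.25 points without 1 mouse, -0.86 without Fabp4 and Fabp5 and -3.20 for 2 or more members. Signs that turned were the log2 fold changes of Fabp5 between labels, at -0.0512 (without EC-KO mouse 1), -0.0948 (without EC-WT mouse 2; -0.0948 to 0.401 without 1 mouse), -0.0884 (without the 1 cell with most UMIs) and -0.26 (same flow cell), and of Cd36 at 0.27 (without EC-WT mouse 2; -0.867 to 0.267 without 1 mouse) and 0.077 (same flow cell). For shares in points they were Fabp4 at 0.296 (without EC-WT mouse 2; -5.70 to 0.296 without 1 mouse), Fabp5 at 0.752 (minimum 500), 0.139 (minimum 2000), 0.173 (without smooth muscle-like cells), 0.959 (without cells over 3 times the median), 1.35 (without EC-KO mouse 2) and 1.15 (without EC-WT mouse 2; -2.20 to 1.35 without 1 mouse), Lpl at -0.373 (no mitochondrial limit), -2.27 (without EC-KO mouse 1) and -0.230 (without EC-WT mouse 1; -2.27 to 2.83 without 1 mouse), Gpihbp1 at 0.517 (thinned) and 0.282 (without EC-KO mouse 2; -2.27 to 0.282 without 1 mouse), and Rbp7 at 0.216 (minimum 2000), 0.778 (without EC-KO mouse 2) and 0.0782 (without EC-WT mouse 2; -1.13 to 0.778 without 1 mouse). The cause was not tested. Co-detection with Cd36 kept its direction in all 99 alternatives. These are 11 overlapping settings for each gene with the same anchor, and only the sign is counted. Rbp7 and Gpihbp1 had 0 and 1 UMIs outside carriers, so their signs could hardly turn. The difference for Meox2 fell from 47.7 to 11.7 points when thinned.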
